A study of Caenorhabditis elegans with 3 samples.

Results

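The genes described here are cey-1, cey-2, cey-3, cey-4, cgh-1, car-1, atx-2, ifet-1 and pqn-59 of Caenorhabditis elegans, which encode cold shock domain proteins and proteins of the ribonucleoprotein (RNP) granules of the oocyte. They were chosen by name: a row of the array table was taken when its current gene symbol was on this list of 9. All 9 were found among the 14795 named genes tested, on 12 of the 21611 rows, and all had a value on all 3 arrays. No filter on low values was applied. A further row, which the platform annotation gives to both pqn-59 and its neighbour R119.3, was kept apart and is shown alone. The study compared RNA of fem-1(lf) and fem-3(gf) animals on 3 arrays of 2 colours, each array carrying 1 prep of each genotype. The labels give no strain beyond these alleles, no age, no growth temperature, no tissue and no dyes. As background, XX animals that lack fem-1 function make oocytes and no sperm, while XX animals with a fem-3 gain-of-function allele make sperm and no oocytes, so the contrast is between a female and a masculinised germ line. Whether the preps came from separate cultures is not stated, so p-values reflect only how far these arrays differed, and that variation may be technical.

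Oocytes store messenger RNAs for the embryo and keep many of them from being translated until they are needed. Much of this stored RNA is bound in RNP particles, which gather into large granules when oocytes are arrested in animals without sperm. The DEAD-box helicase CGH-1 (DDX6 in mammals), the Sm-like protein CAR-1 (LSM14) and the eIF4E-binding protein IFET-1 (4E-T) are core parts of these particles, and the Y-box proteins CEY-1 to CEY-4 bind RNA through a cold shock domain. ATX-2, the worm ataxin-2, and PQN-59, the relative of mammalian UBAP2L, belong to RNP complexes that also act in other cells.

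Values are log2 ratios, and a positive value was read as a higher RNA level in fem-1(lf). No label names the dye of a channel; the reading is likely because the descriptions name fem-1(lf) first, because fem-1(lf) is in channel 2 of each array, and because germ cell markers followed it. All 8 oocyte marker genes were above 0, with means from 1.68 to 3.22 and a median of 2.79, and all 10 sperm marker genes were below 0, with means from -6.88 to -1.63. Of the mutated genes, fem-3 was at 1.76 ± 0.38 (SD, n = 3) and fem-1 at 0.04 ± 0.21, which checks no label because the alleles are not stated to change RNA levels. The median over the 19731 features tested was -0.10, and that over 72 genes of muscle, intestine, cuticle and neurons was -0.33. Arrays correlated with each other at 0.91 to 0.93 (Pearson, across rows, which are not independent). In RNA of many cells, fewer cells of a type and less RNA per cell cannot be told apart, and this holds for every value below.

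Of the 9 genes, 7 were higher in fem-1(lf), and cey-4 and atx-2 did not pass the test (limma, adjusted p under 0.05 over all features). The count higher in fem-3(gf) was 0, also at an unadjusted limma p under 0.05. For comparison, the test called 44.7% of all features: 21% of the features had a positive call and 23.7% a negative call. The difference was at least 2-fold for 5 of the 9, cey-3, car-1, cgh-1, ifet-1 and cey-2, against 8.43% of all features. Both counts use the mean of a gene's rows. By its second row alone cey-2 (1.05-fold) neither passed nor reached 2-fold, and by its first row alone cey-4 (1.41-fold) passed. The called genes ran from 1.40-fold for cey-1 to 4.21-fold for cey-3, with limma adjusted p-values between 0.0004733 and 0.02021. The median log2 ratio of the 9 was 1.08, which is the value of cey-2, a mean of rows that disagree. With the first row of cey-2 in its place the median was 1.19 and with the second 0.74, a choice made after the data were seen. All of these were below the median of the oocyte markers (2.79). They lay on either side of that of 11 general germline markers (0.79, with means from 0.17 to 2.09). These genes were picked with earlier results of the same arrays known, so the count describes them and does not test the list.

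**Figure D1:**
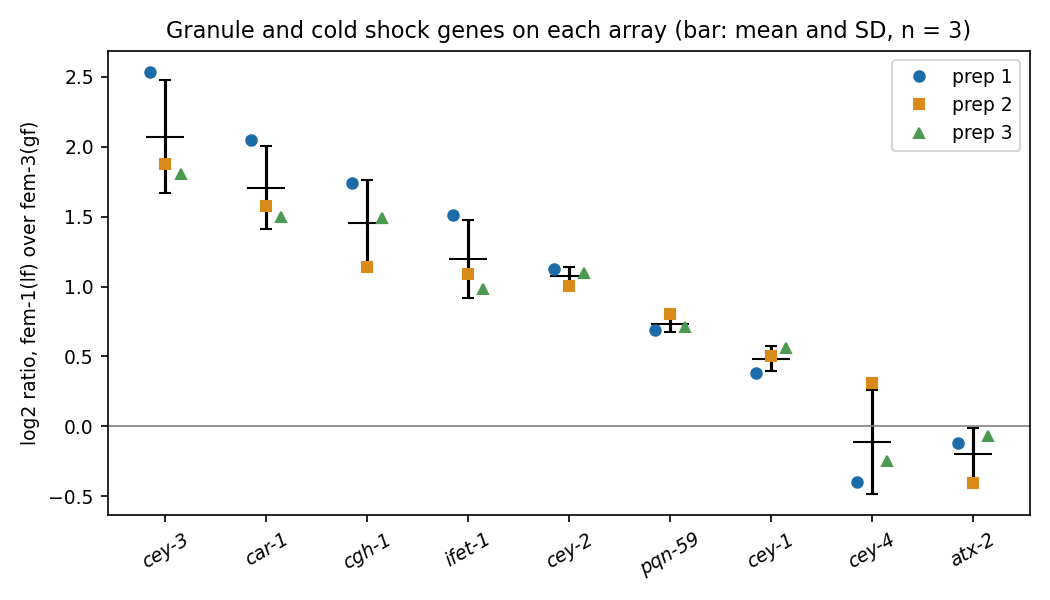
Log2 ratio of each gene (y axis, fem-1(lf) over fem-3(gf), rows of a gene averaged) on the arrays of preps 1, 2 and 3 (points), with the mean and SD over the 3 arrays (black bars). The 7 genes at the left are above 0 on all 3 arrays, cey-4 is above 0 on that of prep 2 alone, and atx-2 is below 0 on all 3.

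The genes of the helicase CGH-1 and of its partners CAR-1 and IFET-1 were each more than 2-fold higher in fem-1(lf). CGH-1 protects stored maternal messages in the oocyte and represses their translation, and its gene cgh-1 (C07H6.5, chromosome III, 1 row) had log2 ratios of 1.74, 1.14 and 1.49 on the arrays of preps 1, 2 and 3. All 3 arrays were well above 0, with prep 2 the lowest, and the mean was 1.46 ± 0.30 (SD, n = 3), a 2.74-fold difference (limma adjusted p = 0.0009929). This placed cgh-1 at rank 551 from the top of the 14795 named genes. The gene car-1 (Y18D10A.17, chromosome I, 1 row), whose product joins CGH-1 in the granules and is needed for the midzone of the embryo's spindle, had 2.05, 1.58 and 1.496. Prep 1 stood above the others, which differed by less than 0.1, and the mean was 1.71 ± 0.30, or 3.27-fold (limma adjusted p = 0.0005422, rank 321).

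IFET-1 binds the cap-binding protein eIF4E and holds target messages silent in the germ line. Its gene ifet-1 (F56F3.1, chromosome III, 1 row) had 1.51, 1.09 and 0.98 on the arrays of preps 1, 2 and 3. Again prep 1 was highest and all arrays were above 0, with a mean of 1.19 ± 0.28 (SD, n = 3), 2.29-fold (limma adjusted p = 0.001811, rank 942). The ratios of these partners lay close to each other. The log2 ratio of car-1 exceeded that of cgh-1 by 0.25 ± 0.22 and that of cgh-1 exceeded that of ifet-1 by 0.26 ± 0.23, differences of about 1 SD with the same sign on all 3 arrays. PATR-1, the worm Pat1, which binds CGH-1 in decapping complexes, had its gene patr-1 at 2.76, 1.61 and 1.87, again highest on prep 1, with a mean of 2.08 ± 0.61 (limma adjusted p = 0.001333).

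The ratios of the Y-box genes depended on which rows stood for cey-2 and cey-4. On gene means, cey-3 was 4.21-fold and cey-2 2.11-fold higher in fem-1(lf), cey-1 was 1.40-fold higher, and cey-4 did not pass. By the first row of each gene all 4 passed with a positive ratio, and by their second rows neither cey-2 nor cey-4 did. As background, CEY-2 and CEY-3 are closely alike and act chiefly in the germ line, while CEY-1 and CEY-4 also act in somatic tissue. The gene cey-3 (M01E11.5, chromosome I, 1 row) had log2 ratios of 2.54, 1.88 and 1.80 on the arrays of preps 1, 2 and 3. On gene means it was the highest of the 9 on every array but showed the widest spread, since prep 1 stood well above the others, and its mean was 2.07 ± 0.40 (SD, n = 3, limma adjusted p = 0.0004733). Its rank among named genes was 149.

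The gene cey-1 (F33A8.3, chromosome II, 1 row) had 0.38, 0.50 and 0.56, with prep 1 lowest. The arrays were close together and the mean was 0.48 ± 0.09 (SD, n = 3, limma adjusted p = 0.02021), at the 79.6th percentile of all features. The call of cey-1 was lost without prep 2 (0.47, limma adjusted p = 0.092) or without prep 3 (0.44, adjusted p = 0.13), and when a difference beyond 1.5-fold was asked for. Within each array, the log2 ratio of cey-1 was below that of cey-3 by 2.15, 1.37 and 1.25. On average it fell short of cey-3 by a mean difference of -1.59 ± 0.49, a gap more than 3 times its SD that does not depend on where 0 was set on an array. The 6 pairs of the 4 genes were compared in this way. Each kept its sign on all 3 arrays on gene means, which gives an exact sign permutation p of 0.25 (two-sided, 0.25 after adjustment over the pairs), the smallest that 3 arrays allow.

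The rows of cey-2 and of cey-4 disagreed, so their gene means are the mean of unlike values. For cey-2 (F46F11.2, chromosome I), the first row had 2.06, 1.95 and 2.24 on the arrays of preps 1, 2 and 3, and the second row 0.19, 0.06 and -0.05. The first was far above 0 on every array and the second scattered around 0, with means of 2.08 ± 0.15 and 0.07 ± 0.12 (SD, n = 3). In a fit of each row on its own, the first row was 4.24-fold higher in fem-1(lf) (limma adjusted p = 0.0001083), whereas the second did not pass (adjusted p = 0.67). The first row exceeded the second by 2.01 ± 0.24, and this gap was at least 1.86 on each array. Judged by its first row, cey-2 matched cey-3, with a difference of -0.01 ± 0.46 (cey-3 minus cey-2) whose sign varied between arrays. Judged by its second row, it lay 2.00 ± 0.29 below cey-3. Which row reports cey-2 RNA was not tested, nor was whether either also binds RNA of cey-3, its close relative.

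For cey-4 (Y39A1C.3, chromosome III), the rows lay on opposite sides of 0. The first row had 0.28, 0.83 and 0.39 on the arrays of preps 1, 2 and 3 and the second -1.07, -0.21 and -0.89. Prep 2 was highest on both rows, and the rows did not overlap: every value of the first was above 0 and every value of the second below it. Taken alone, the first row was called 1.41-fold higher in fem-1(lf) (0.50 ± 0.29, SD, n = 3, limma adjusted p = 0.042) and the second 1.65-fold higher in fem-3(gf) (-0.72 ± 0.46, adjusted p = 0.028). Among all 21168 rows fitted alone, 21.2% were called with a positive and 23.5% with a negative ratio. The rows differed by 1.22 ± 0.17. The gene mean of cey-4, -0.11 ± 0.37 (limma adjusted p = 0.62), therefore averages a rise and a fall and gives no direction for the gene. By its first row cey-4 differed from cey-1 by -0.02 ± 0.27 (cey-1 minus cey-4), and by its second by 1.20 ± 0.43.

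Rows that differed in their call, as those of cey-2 did, were found for 428 (30.7%) of 1395 genes with more than 1 row measured on all 3 arrays. The size of the disagreement was larger than for most of these genes. The median spread between the highest and lowest row mean was 0.26. A spread as large as that of cey-2 was seen for 47 genes (3.37%), and one as large as that of cey-4 for 107 (7.67%). Rows called in opposite directions, as for cey-4, were found for 34 genes (2.44%).

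**Figure D2:**
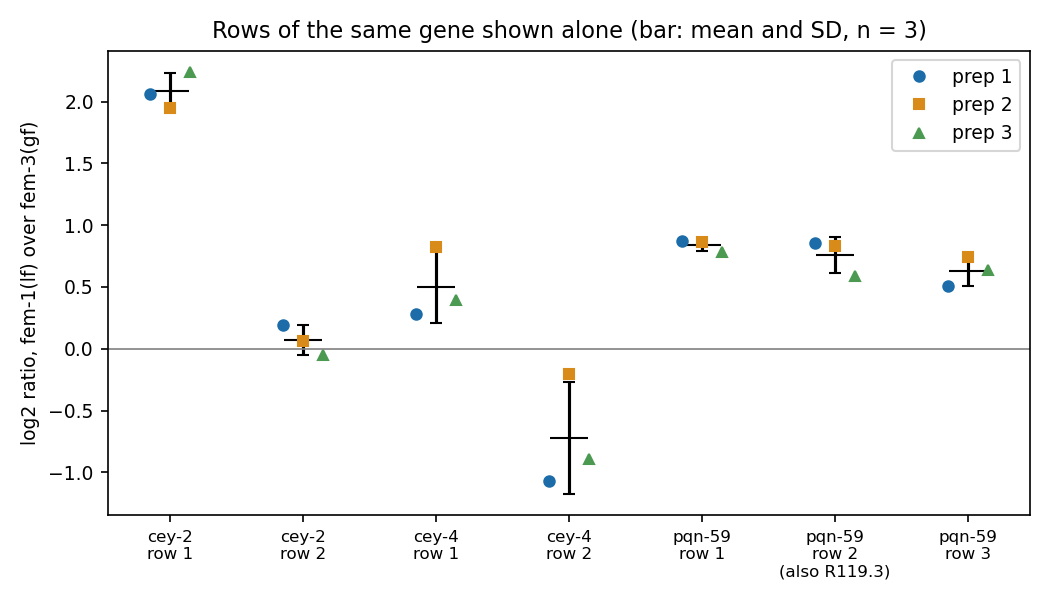
Log2 ratio (y axis, fem-1(lf) over fem-3(gf)) of each row of the genes that have more than 1, on the arrays of preps 1, 2 and 3 (points), with the mean and SD over arrays (black bars). The cey-2 rows average 2.08 and 0.07 and the cey-4 rows 0.50 and -0.72. The pqn-59 rows, including the row shared with R119.3, have means between 0.63 and 0.84.

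The gene pqn-59 (R119.4, chromosome I) showed a moderate ratio with rows that lay close together. Its product works with GTBP-1, the worm G3BP, in stress granules. Its first row had 0.88, 0.87 and 0.78 on the arrays of preps 1, 2 and 3 and its other own row 0.50, 0.74 and 0.64. All 6 values were above 0, and the gene mean was 0.74 ± 0.06 (SD, n = 3), 1.67-fold (limma adjusted p = 0.004238, rank 2228). The row shared with R119.3 had 0.86, 0.83 and 0.59. It lay between the gene's own rows on preps 1 and 2 and below both on prep 3, and it cannot be assigned to either gene. The partner gene gtbp-1 had 1.43, 1.09 and 0.99, all above those of pqn-59, with a mean of 1.17 ± 0.23 (limma adjusted p = 0.001513). With a 1.5-fold minimum, pqn-59 no longer passed (limma treat adjusted p = 0.48).

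The gene atx-2 (D2045.1, chromosome III, 1 row), whose product regulates translation in the germ line and binds the poly(A)-binding protein, was not called in either direction. Its log2 ratios were -0.12, -0.41 and -0.07 on the arrays of preps 1, 2 and 3. All were below 0, prep 2 the furthest, and the mean of -0.20 ± 0.18 (SD, n = 3, limma adjusted p = 0.25) was at the 42.0th percentile of all features. The partner gene pab-1 had 0.45, -0.20 and -0.23, with signs that varied, and a mean of 0.005 ± 0.39 (limma adjusted p = 0.98). The absence of a call does not show that the RNA level of atx-2 was equal in the 2 genotypes.

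Placed in order of gene mean, the genes ran cey-3, car-1, cgh-1, ifet-1, cey-2, pqn-59, cey-1, cey-4 and atx-2. Neighbours in this order that differed by less than the SD of their difference were ifet-1 and cey-2 (0.12 ± 0.25, SD, n = 3) and cey-4 and atx-2 (0.09 ± 0.55), and the sign of both differences varied between arrays. The other neighbouring pairs kept 1 sign on all 3 arrays. The largest step was that from cey-1 to cey-4 (0.59 ± 0.35), which rests on the discordant rows of cey-4. The steps from cey-3 to car-1 (0.36 ± 0.11), from cey-2 to pqn-59 (0.34 ± 0.13) and from pqn-59 to cey-1 (0.25 ± 0.09) were larger relative to their spread, although that from cey-2 depends on which of its rows is used.

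The arrays did not contribute equally. Of the 7 called genes, 5 were highest on the array of prep 1, namely cey-3, car-1, cgh-1, ifet-1 and cey-2, while pqn-59 was highest on prep 2 and cey-1 on prep 3. For cey-2 this holds for the mean of its rows by a margin of 0.03, and its called first row was highest on prep 3. The oocyte markers were also highest on prep 1, with a median of 3.41 on the array of prep 1 against 2.30 and 2.49 on those of preps 2 and 3. The SD over all rows was also largest on prep 1, at 1.35 against 1.15 and 1.22. The part of prep 1 in the spread of these genes was not tested. Without prep 1 the means of cey-3, car-1, cgh-1 and ifet-1 were 1.84, 1.54, 1.31 and 1.04, and all were still called.

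Other genes of RNA storage and decay mostly had ratios on the same side. Of 101 genes on 5 lists of germline RNA regulators, decapping and deadenylation factors, poly(A), cap and stress granule proteins, RNA helicases and miRNA effectors, with the 9 genes left out, 78 were measured. Of these, 53 (67.9%) passed on the fem-1(lf) side, 4 on the other and 21 on neither, with a median log2 ratio of 0.75. Over all features the median was -0.10. On the fem-1(lf) side 21% of all features passed and on the other 23.7%, the shares to set beside the counts of every list below. Of the 11 general germline markers 7 passed on the fem-1(lf) side, with a median of 0.79, so the pooled lists had a median close to that of these markers. This short list was picked by hand. The DNA replication genes mcm-2 (2.09), pcn-1 (2.08) and mcm-5 (1.64) were its highest, and its lowest was syp-1 (0.17), so its median depends on its make-up. The list of germline RNA regulators, whose members are not all particular to the germ line, had the highest median, 1.89. Of 21 measured, 18 rose, 1 fell and 2 did not pass. The maturation factor gene oma-2 and the Pumilio-type repressor gene puf-5 were highest, at 3.49 ± 0.58 and 2.98 ± 1.05 (SD, n = 3). At the lower end were asd-2, which encodes a STAR-family splicing regulator of muscle, at -0.42 ± 0.07 (limma adjusted p = 0.029), and the stem cell regulator gene fbf-2 at 0.08 ± 0.07, which did not pass. The call of asd-2 was lost without prep 1 (-0.38), prep 2 (-0.45) or prep 3 (-0.44) and after median centring (-0.33).

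Among decapping and deadenylation genes, 13 of 18 rose, 1 fell and the remaining 4 missed the threshold, with a median of 0.81. The highest were patr-1, given above, and lsm-1, which encodes a subunit of the cytoplasmic Lsm ring, at 2.05 ± 0.36 (SD, n = 3). The decapping enzyme gene dcap-2 was at 1.00 ± 0.25 and the decapping activator gene edc-3 at 1.29 ± 0.47. The member that fell was parn-1, which encodes a poly(A)-specific ribonuclease, at -0.71 ± 0.18 (limma adjusted p = 0.007473), and its call was lost after the somatic centring (-0.34, adjusted p = 0.089) and with treat against 1.5-fold. The gene ntl-4 of the CCR4-NOT complex did not pass at 0.33 ± 0.27.

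In the list of poly(A)-binding, cap-binding and stress granule genes, 7 of 13 rose, 2 fell and 4 did not pass, with a median of 0.49. The RNA-binding protein gene hrpa-1 led at 1.21 ± 0.28 (SD, n = 3), followed by gtbp-1. Both members that fell encode eIF4E isoforms, the class of protein that IFET-1 binds: ife-1 at -0.90 ± 0.17 (limma adjusted p = 0.002918) and ife-4 at -0.54 ± 0.21 (adjusted p = 0.022). The call of ife-4 was lost without prep 2 (-0.47) or prep 3 (-0.49) and with treat against 1.5-fold. It was also lost after the somatic centring (-0.18, limma adjusted p = 0.43). The call of ife-1 was lost with treat (limma treat adjusted p = 0.13). Of the other isoforms measured, ife-2 rose at 0.64 ± 0.21 and ife-3 did not pass at 0.36 ± 0.23.

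Among RNA helicases 12 of 21 rose and 9 did not pass, 0 being lower in fem-1(lf) at either an adjusted or an unadjusted limma p under 0.05, with a median of 0.61, and cgh-1 itself had the highest mean of the list. It was followed by mut-14 at 1.23 ± 0.27 (SD, n = 3), whose product acts in germline RNA silencing. The germ granule helicase gene glh-1, at 0.26 ± 0.13, and drh-3, at 0.33 ± 0.07, did not pass on the deposited scale. After median centring 18 helicase genes passed, drh-3 among them (0.42, limma adjusted p = 0.034), and after the somatic centring 19 did, with both glh-1 (0.62) and drh-3 (0.69). The count of all 19731 features higher in fem-1(lf) rose as well, from 4147 as deposited to 4701 after median centring and 7050 after the somatic centring. Of 7 miRNA effector genes, 5 rose and 2 did not pass, with a median of 0.49. Without prep 1 the count that rose was 4, and without prep 2 or prep 3 it was 3. The Argonaute gene alg-2 at 1.39 ± 0.43 and nhl-2, whose product works with CGH-1 in miRNA repression, at 1.24 ± 0.13 were highest, and alg-1 (0.27 ± 0.23) and ain-1 (0.08 ± 0.07) did not pass.

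**Figure D3:**
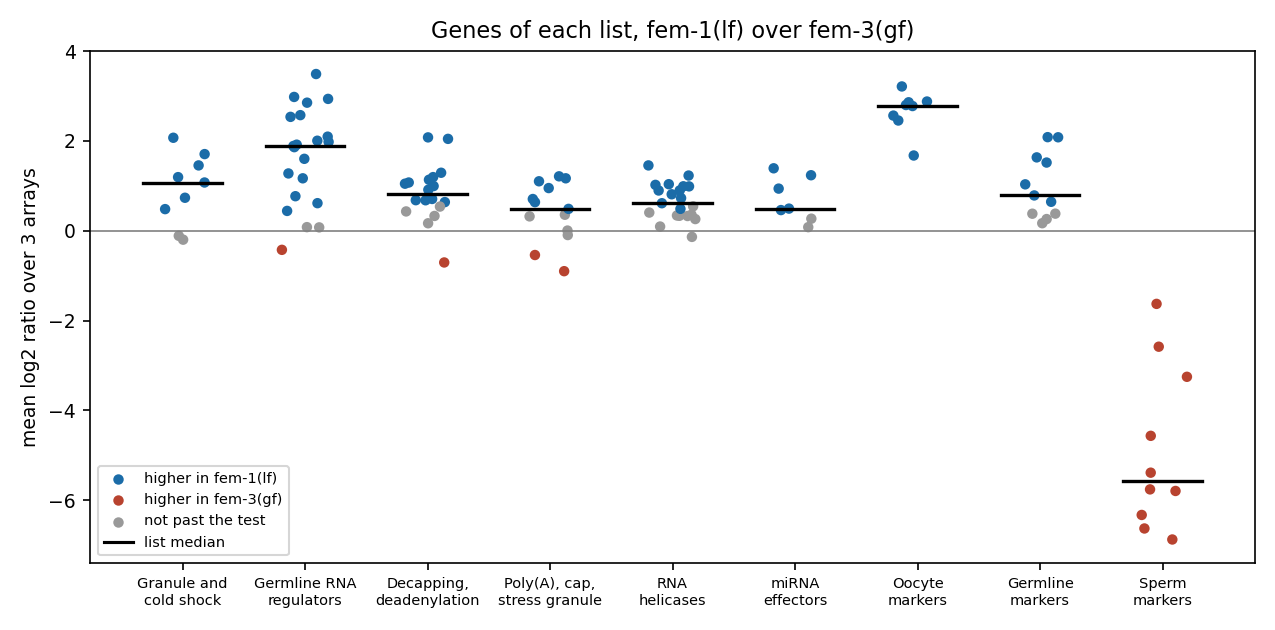
Mean log2 ratio over 3 arrays (y axis, fem-1(lf) over fem-3(gf)) of every measured gene of each list (points, coloured by the limma call; horizontal bars are list medians; points are spread sideways at random). The 9 granule and cold shock genes have a median of 1.08 (1.19 or 0.74 with the first or second row of cey-2), below the oocyte markers at 2.79, and the sperm markers lie below 0.

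The named genes whose ratios were most like those of cey-3, by Euclidean distance over the 3 arrays, were the DNA replication genes mcm-2 (distance 0.061) and mcm-3 (0.15) and the gene lsm-1 (0.11). Of 14786 other named genes, 97 lay within a distance of 0.5 of cey-3. For atx-2, at the other end of the order, the nearest were ntr-1, cts-1 and sri-66 (distances 0.045, 0.046 and 0.048), and 3243 genes lay within 0.5.

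The size of every ratio depended on where 0 was set. Centring takes a common value from all genes of an array, so it cannot change the order of the 9 genes. Scaling could have changed that order and left it the same. Centring each array on its median raised the 9 means by about 0.1, and centring on genes of muscle, intestine, cuticle and neurons moved the median of all features to 0.26 and raised the means further. On that last scale cgh-1 was at 1.82, cey-3 at 2.43 and cey-1 at 0.84, while cey-4 and atx-2 turned positive, at 0.25 and 0.16, without passing the test. The same 7 genes were called under both centrings and with scaled arrays. The fem-1(lf) side held 47% of all calls on the deposited scale, 56.5% with median centring, 56.4% with scaling and 75.7% with the somatic centring.

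**Figure D4:**
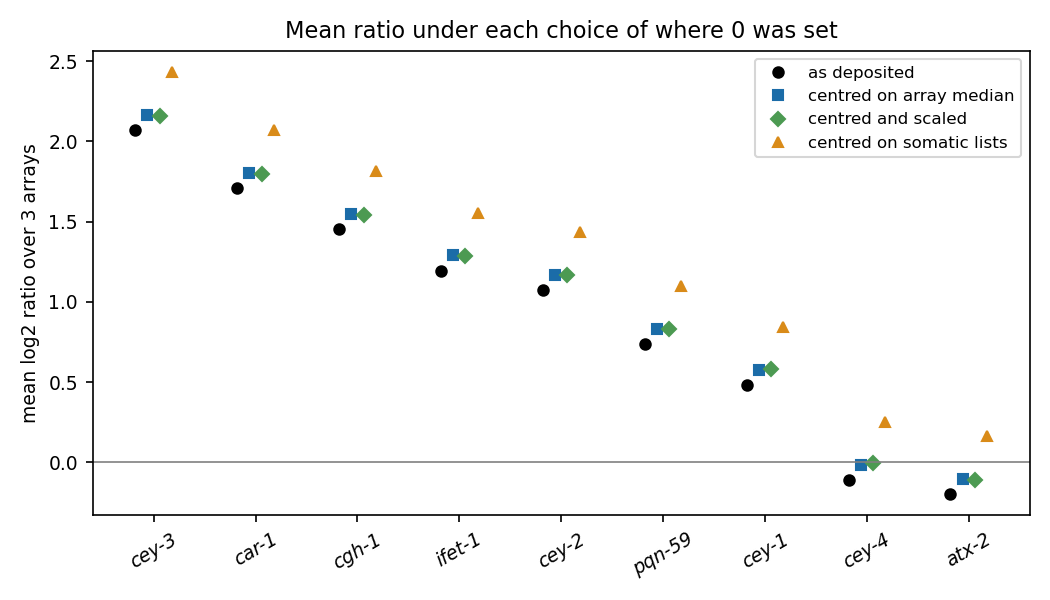
Mean log2 ratio over 3 arrays (y axis) of each gene as deposited, after centring on the array median, with scaling added, and with 0 set by the somatic lists. All genes shift upward together, which centring on a common value per array brings about by itself. The genes cey-4 and atx-2 cross 0 under the somatic centring, at 0.25 and 0.16.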

How the data were processed

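Per the labels each array has 2 channels, and the authors deposited a log2 ratio of them for each row. The log2 base was found from the deposited values, 99.99% of which are whole thousandths once raised as powers of 2 (tolerance 0.01), against 3.11% for base 10. For scanner, background correction, normalization, centring, spot filter, genome build and dyes the entry is: not given in the sources used here. No dye swap is stated, so dye effects could not be removed. Neither dim nor saturated spots could be recognised. Rows were named through the platform annotation, updated by gene ID to RefSeq assembly WBcel235: of 16450 rows with 1 gene, 16360 matched by gene ID and 8 by accession. Where a gene had several rows, their mean was taken on each array.

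Ratios were fitted against 0 with limma 3.58.1 in R 4.3.3 (lmFit, eBayes, two-sided, Benjamini-Hochberg over 19731 features measured on all 3 arrays). The fit was tried on simulated data, where 100 features were shifted by 1 and 100 by 2 on the log2 scale. It recovered 88 and 100 of these, with 19 false calls among the features not shifted. Far fewer features were shifted than were called in the data, so the simulation does not give the rate of false calls here. Rows alone were fitted the same way over 21168 rows. Members and lists were chosen with earlier results of these arrays known. The rule for genes named was all members, the 2 highest and the 2 lowest of each pathway list with 1 sign on all arrays, stated partners, and the 3 nearest genes of the highest and lowest member. Other eIF4E isoforms, dcap-2 and edc-3 were named as partners after their values were seen. Alternatives were other centrings, scaling, features on at least 2 arrays, rows alone, robust variances, limma treat against 1.5-fold and leaving out each array. Figures were drawn with matplotlib 3.10.9.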

Additional observations from a re-analysis of the deposited data

How the results depend on the processing

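Of 93 values of the 9 genes under alternatives, 83 kept their direction and their side of the threshold. Not all of them could change direction. Features on at least 2 arrays, robust variances and limma treat left every mean of the 9 as it was. Rows alone repeated the value of the 6 genes with 1 row. For cey-1 the call was lost with limma treat against 1.5-fold (0.48), without prep 2 and without prep 3, with means from 0.44 to 0.53 over the arrays left out. The pqn-59 call was lost with treat (0.74), and that of cey-2 on its second row alone (0.068). The sign of cey-4 turned with the first row alone (0.50), the somatic centring (0.25) and without prep 1 (0.030; range -0.32 to 0.030), and its second row alone was called (-0.72). That of atx-2 turned with the somatic centring (0.16). With the rows of a gene averaged, the count of genes called higher in fem-1(lf) lay between 5 and 7. That range does not cover the choice of row: the first row of cey-4 would add this gene, and the second row of cey-2 would remove that one. With rows alone 9 rows passed on the fem-1(lf) side and 1, of cey-4, on the other. The cey-2 rows differed by 1.88 to 2.09 and the cey-4 rows, compared after the data were seen, by 1.16 to 1.31 with an array left out.

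With its first or second row in place of the mean, cey-2 differed from cey-3 (cey-2 minus cey-3) by 0.010 or -2.004, from cey-1 (cey-1 minus cey-2) by -1.60 or 0.41 and from cey-4 (cey-2 minus cey-4) by 2.19 or 0.18. With the first or second row of cey-4, choices made after the data were seen, cey-1 minus cey-4 was -0.016 or 1.205 and cey-2 minus cey-4 was 0.58 or 1.80. In the list of germline RNA regulators, which also holds asd-2, no gene was called higher in fem-3(gf) after either centring (0) or without any single array. The call of asd-2 was thus lost in each. At an unadjusted limma p under 0.05 that count was 1 after median centring and without prep 1 or prep 2, and 0 otherwise. After the somatic centring no decapping gene (0, or 1, parn-1, at an unadjusted p under 0.05) and 1 cap-binding gene were called higher in fem-3(gf), and 19 helicase genes higher in fem-1(lf), against 18 after median centring and 12 as deposited. Over all features the count higher in fem-1(lf) was 7050, 4701 and 4147 in the same order. Without prep 2 or prep 3 the cap-binding genes called higher in fem-3(gf) were 1 (range 1 to 2) and the miRNA effectors called higher in fem-1(lf) 3 (range 3 to 4). The causes were not tested, beyond that fewer arrays leave fewer degrees of freedom. Each ratio sets fem-1(lf) against fem-3(gf) on the same array, so the fit against 0 is already paired by array. The arrays form 1 group, and no further pairing was possible. The number of arrays limits precision, and signal over background is unknown here.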
